A study of Mus musculus with 24 samples.

Results

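Collagen chain genes are described here, that is, the protein-coding genes whose symbol is Col, a number, the letter a and a number. This rule found 43 of the 37310 genes in the deposited tables. By the structure that their products form, 11 encode chains of fibrillar collagens, 6 chains of basement membrane collagen, 9 chains of fibril-associated collagens and 17 chains of other types. Emid2, an older symbol of a further collagen chain, did not match the rule and was left out.

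The RNA came from stromal vascular cells, the mixed fraction of fat that holds the precursors of adipocytes, of C57BL/6 mice aged 6 weeks. These cells were taken from inguinal fat as white adipose tissue (WAT) or from interscapular fat as brown adipose tissue (BAT). They were driven to become adipocytes in culture, with insulin, dexamethasone and IBMX at first and with insulin and T3 afterwards. The medium held EGCG (epigallocatechin gallate, a polyphenol of tea leaves) or, as the control, DMSO, and RNA was taken on day 4 or day 8. Depot, day and treatment gave 8 groups of 3 libraries, 24 in all. The labels name no genetic alteration, no dose of EGCG and no sex of the mice. They do not say whether replicates came from separate isolations of cells, so p-values measure the spread between these libraries, which may be technical.

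Collagens are trimers of chains wound around each other, and they are the main fibres of the matrix between cells. Type I and type III chains form the thick fibrils of connective tissue, and type V chains are built into these fibrils and limit their width. Type IV chains form the sheet of the basement membrane, which wraps each adipocyte, and type VI chains form beaded filaments that link cells to the matrix around them.

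Values are FPKM, that is, fragments per kilobase of gene scaled to the reads that the library had on genes. Replicates 1 and 2 of each group (16 libraries with 39452696 to 52893848 reads on genes) form the first table and carry the tests. Replicate 3 (8 libraries with 16392420 to 41675643 reads) comes from a table made separately, so its levels are set beside the others as values only. In replicate 3 of WAT day 8 EGCG, 5 genes took 61.0% of the reads, against 3.64% to 10.5% in the other libraries, and its FPKM values of all other genes are lowered by this. Statements on whether groups overlap use the FPKM values of all replicates without rescaling. That library's lying below the control libraries therefore adds nothing to them. A count of 3 reads, taken as the floor, corresponded to 0.0284 to 0.0915 FPKM for a gene of 2 kilobases, and such floors cover counting error only.

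The summed FPKM of 8 adipocyte markers was 2120.2 to 2788 in WAT day 4 control and 403 to 442 with EGCG, and 4441 to 5087 against 58.4 to 164 on day 8. In BAT it was 5166 to 6713 against 1235 to 1279 on day 4 and 8485 to 9014 against 320.2 to 339 on day 8. None of these markers was at 0 in a control library, and Lep, which encodes leptin, was at 0 in 3 EGCG libraries of WAT. The sum of 6 markers of myofibroblasts and smooth muscle, none at 0 in any library, was 169 to 194 without and 90.3 to 98.1 with EGCG in WAT day 4. In WAT day 8 it was 332 to 455 against 659, 650 and 326, the last from the third library, whose FPKM values are lowered. In BAT it was 99.4 to 134 against 706 to 877 on day 4 and 403 to 548 against 1339 to 1704 on day 8. Acta2 and Tagln carried this sum, and with EGCG the mean of 1 and 2 of the 6 markers was higher in WAT on days 4 and 8, and of 6 and 4 in BAT (in BAT day 8 Des and Myh11 were lower). In bulk RNA, fewer cells of a type and less RNA per cell cannot be told apart. The part of these shifts in the collagen results was not tested. The 4 brown identity markers summed to 49.4 to 58.1 in BAT and 27.9 to 34.5 in WAT control cells on day 4 and to 30.6 to 41.7 and 16.1 to 18.2 on day 8, where Ucp1, the uncoupling protein of brown fat, was at 0 in the WAT control libraries.

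The sequences before the start of a few chains are given first. They are 250 bases each, from the RefSeq promoter table (mouse build GRCm38.p6), which matched 35 of the 43 genes with 38 promoters. Capitals mark matches on either strand to CCAAT (the CCAAT box), to GGGCGG (the GC box, which reads CCGCCC in reverse), to TATAAA (the TATA box) or to TGACTCA (the AP-1 motif). Col1a2, a chain of the main fibrillar collagen, is shown because it fell with EGCG in each comparison, and the genes of the type VI trimer are shown because Col6a3 parted from Col6a1 and Col6a2 in BAT cells on day 8.
Col1a2, chr6:4505368-4505617, plus strand: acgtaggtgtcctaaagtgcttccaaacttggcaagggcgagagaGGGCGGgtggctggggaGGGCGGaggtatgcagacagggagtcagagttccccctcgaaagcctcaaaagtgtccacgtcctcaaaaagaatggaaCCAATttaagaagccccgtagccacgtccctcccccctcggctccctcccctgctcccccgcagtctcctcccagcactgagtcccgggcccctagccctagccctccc
Col6a1, chr10:76726045-76726294, minus strand: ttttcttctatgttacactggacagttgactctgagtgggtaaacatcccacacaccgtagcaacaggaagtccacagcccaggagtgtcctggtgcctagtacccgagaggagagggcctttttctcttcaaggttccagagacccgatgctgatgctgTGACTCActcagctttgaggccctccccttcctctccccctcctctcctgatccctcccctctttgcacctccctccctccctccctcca
Col6a2, chr10:76623405-76623654, minus strand: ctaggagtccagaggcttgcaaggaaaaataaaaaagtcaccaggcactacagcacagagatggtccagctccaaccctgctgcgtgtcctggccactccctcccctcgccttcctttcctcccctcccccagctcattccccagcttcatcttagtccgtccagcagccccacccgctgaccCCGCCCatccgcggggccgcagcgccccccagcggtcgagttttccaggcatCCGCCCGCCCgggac
Col6a3, chr1:90843972-90844221, minus strand: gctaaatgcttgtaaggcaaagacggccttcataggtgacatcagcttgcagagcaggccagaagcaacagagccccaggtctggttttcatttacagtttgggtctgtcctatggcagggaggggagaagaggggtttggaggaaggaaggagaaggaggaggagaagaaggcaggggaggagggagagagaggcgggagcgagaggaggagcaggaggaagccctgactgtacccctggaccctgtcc

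In Col1a2, CCAAT began 109 bases before the start and GGGCGG began 205 and 188 bases before it. TGACTCA began 90 bases before the start of Col6a1, and the GC box began 67, 15 and 11 bases before the start of Col6a2, the last pair overlapping each other. The window of Col6a3 held none of these motifs. Over all 32851 promoters of the table, 33.8% held CCAAT, 32.7% the GC box, 12.4% TATAAA and 4.46% TGACTCA. Of the 38 collagen promoters, 34.2% held CCAAT, 57.9% the GC box, 13.2% TATAAA and 2.63% TGACTCA. These are matches of letters and say nothing of a factor.

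The type IV chains Col4a1 and Col4a2 lie head to head on opposite strands, and their starts in the promoter table overlap by 22 bases (GRCm38.p6), shown here for that overlap, with the GC box that lies in it in capitals.
Col4a1 and Col4a2 overlap, chr8:11312805-11312826, plus strand: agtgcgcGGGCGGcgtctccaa

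Collagen genes took a large share of the RNA of these cells, and a smaller one with EGCG. In WAT day 4 control libraries 10.7%, 11.04% and 11.01% of the reads on genes fell on the 43 genes (replicates 1, 2 and 3), and with EGCG 7.43%, 8.10% and 7.76%. On day 8 the shares in WAT were 10.6%, 8.75% and 9.82% without EGCG and 4.91%, 5.16% and 1.92% with it. The control and EGCG libraries of WAT did not overlap on either day.

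BAT control libraries had 6.74%, 6.45% and 6.42% on day 4 and 4.32%, 4.39% and 4.86% on day 8. With EGCG the shares were 5.05%, 5.25% and 5.34% on day 4 and 3.73%, 3.68% and 3.58% on day 8. These groups did not overlap either, and each BAT control library was below each WAT control library of its day.

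**Figure D1:**
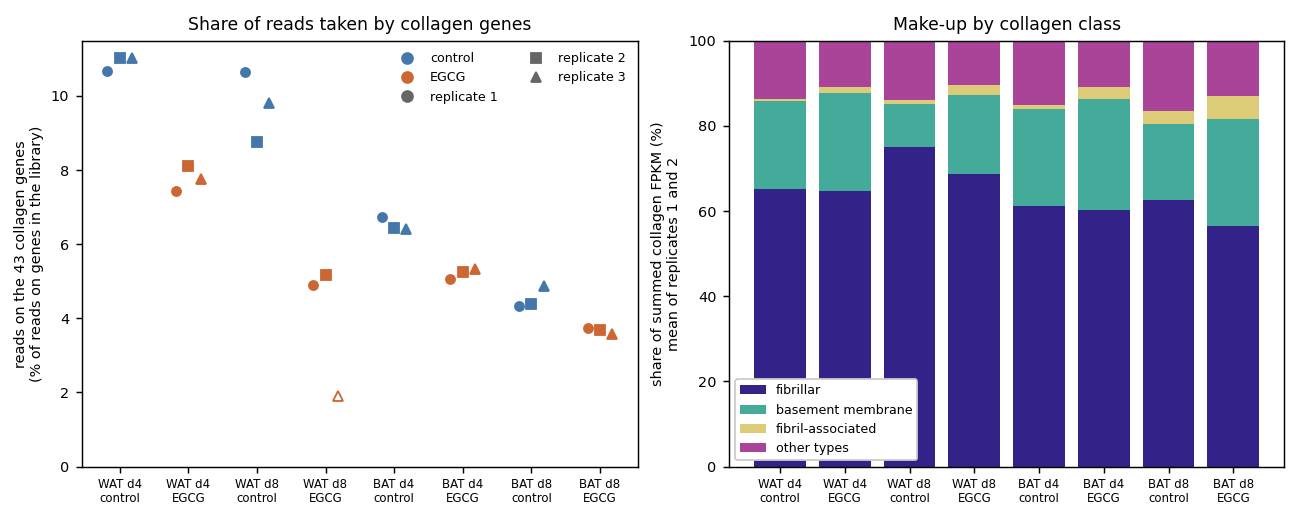
Left, the percent of each library's reads on genes that fell on the 43 collagen genes (points are libraries, marker shapes are replicates 1, 2 and 3, the open triangle is the WAT day 8 EGCG library in which 5 genes took 61.0% of the reads). Right, the share of summed collagen FPKM in each class (mean of replicates 1 and 2), where fibrillar chains take the largest share in all 8 groups, while on the left each EGCG group lies below its control.

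Levels differed widely among the chains. By the highest mean of a group (replicates 1 and 2), 5 genes reached 1000 FPKM, 10 lay from 100 to 1000, 7 from 10 to 100, 5 from 1 to 10 and 16 under 1. The highest were Col3a1, the chain of type III collagen, Col1a1 and Col1a2, the chains of type I collagen, and the basement membrane chains Col4a1 and Col4a2.

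The make-up by class differed between control and EGCG cells of each depot and day, except for the fibrillar share on day 4. The fibrillar share overlapped on day 4, at 65.2% to 67.1% without and 64.4% to 66.8% with EGCG in WAT and at 60.2% to 62.4% against 59.7% to 63.4% in BAT. Fibril-associated chains took 0.403% to 0.533% of the summed collagen FPKM in WAT day 4 control and 1.23% to 1.48% with EGCG. In BAT day 8 their share was 2.49% to 3.06% without and 4.35% to 5.55% with EGCG. Basement membrane chains took 16.4% to 18.1% in BAT day 8 control and 25.1% to 25.2% with EGCG, and fibrillar chains 62.1% to 66.0% against 56.2% to 57.8%. The basement membrane share was also higher with EGCG in WAT day 4 (18.9% to 20.7% against 21.9% to 23.4%) and WAT day 8 (7.67% to 12.8% against 17.9% to 18.9%). In BAT day 4 it was 21.8% to 23.15% against 23.7% to 26.6%. Chains of other types took a smaller share with EGCG in each depot and day. Their share was 13.55% to 13.74% against 10.1% to 11.05% in WAT day 4 and 15.1% to 16.7% against 12.6% to 13.1% in BAT day 8. Apart from the fibrillar share on day 4, the libraries of these pairs did not overlap. The fibril-associated share was mostly Col12a1. In BAT day 8 EGCG its mean was 273 FPKM, where the class summed to 306 and 318 (replicates 1 and 2). Col14a1, Col16a1 and Col20a1 of this class fell there.

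Of the 43 genes, 26 reached 1 FPKM in at least 2 of the 16 libraries and were tested, among 14095 genes in all. They are 9 fibrillar, 3 basement membrane, 4 fibril-associated and 10 other chains. The other 17 (Col2a1, Col4a3, Col4a4, Col4a6, Col6a4, Col6a5, Col6a6, Col9a1, Col9a2, Col9a3, Col10a1, Col13a1, Col17a1, Col19a1, Col22a1, Col24a1, Col25a1) had highest group means from 0.0289 to 1.22 FPKM. The test was limma on log2(FPKM + 1), two-sided, and a gene was called at a Benjamini-Hochberg adjusted p under 0.05 over all genes tested. Differences on the log2(FPKM + 1) scale are given with their SE, and they understate the change of low genes. The fit took 1 spread per gene from all 16 libraries, so a noisy group widens the SE of comparisons it is not part of. Col4a1, for example, had an SD of 200 FPKM in WAT day 8 control and 4.74 in BAT day 8 control (replicates 1 and 2). The alternative with only the groups compared takes the spread from those groups alone.

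With EGCG, more of the tested collagen genes fell than rose in each of the 4 comparisons with the control. In WAT on day 4, 14 of the 26 fell and 6 rose (median -0.37), where 53.7% of all genes tested were called, 34.4% as higher and 19.3% as lower (median 0.087). In WAT on day 8, 16 fell and 4 rose (median -0.51), against 63.6% called, 44.7% higher and 18.9% lower over all genes (median 0.17). In BAT on day 4, 14 fell and 6 rose (median -0.39), against 48.5% called, 27.9% higher and 20.6% lower (median 0.032). In BAT on day 8, 15 fell and 5 rose (median -0.35), against 72.6% called, 46.5% higher and 26.1% lower (median 0.17).

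Rescaling each library by the median ratio over genes moved the median of all genes to -0.023 and 0.0055 for days 4 and 8 of WAT, and to 0.019 for BAT day 8. On that scale WAT day 4 had 15 collagen genes that fell and 3 that rose, and WAT day 8 had 17 and 1. The counts for BAT were 14 and 6 on day 4, and 17 and 5 on day 8.

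Of 9 fibrillar chains, 5, 6, 7 and 6 fell in WAT day 4, WAT day 8, BAT day 4 and BAT day 8, and of 10 chains of other types 6, 7, 6 and 6 fell. Of the 3 tested basement membrane chains, 2 and 1 fell in WAT and 0 and 0 in BAT. Of 4 fibril-associated chains, 1, 2, 1 and 3 fell. No difference between classes was tested.

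**Figure D2:**
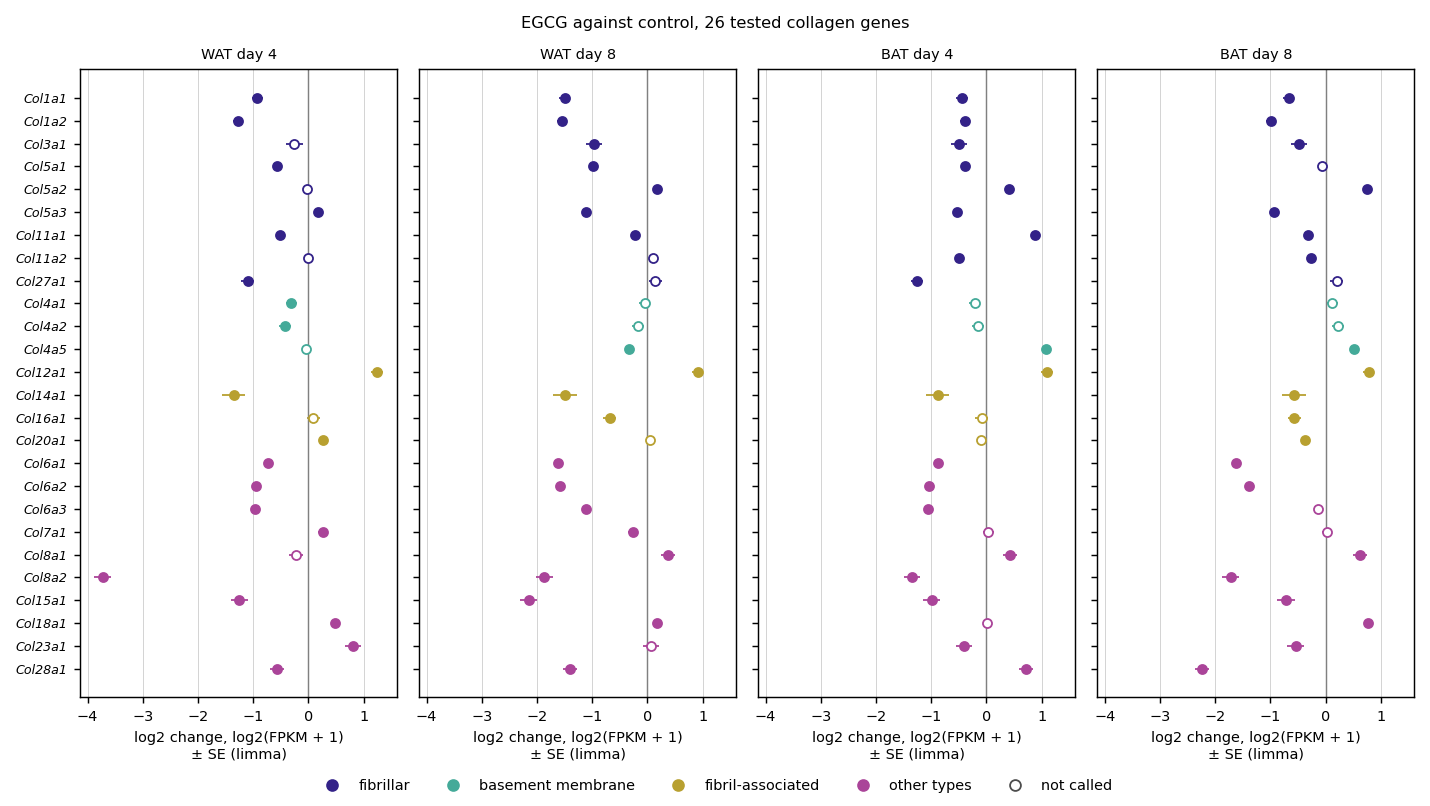
Difference with EGCG against control (x axis, log2(FPKM + 1) scale) for the 26 tested collagen genes, coloured by class, with open points for genes not called. Bars are SE from limma, with 2 libraries a group and 1 spread per gene taken from all 16 libraries. Called in the same direction in all 4 panels were Col12a1, to the right of 0, and Col1a1, Col1a2, Col6a1, Col6a2, Col8a2, Col14a1 and Col15a1, to the left. Col3a1, Col5a1 and Col6a3 also lie to the left in all 4 panels but were not called in each.

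Over the 4 comparisons 7 genes were called as lower throughout (Col1a1, Col1a2, Col6a1, Col6a2, Col8a2, Col14a1 and Col15a1) and 1, Col12a1, as higher throughout. A further 7 rose in at least 1 comparison and fell in at least 1 (Col4a5, Col5a3, Col7a1, Col11a1, Col20a1, Col23a1 and Col28a1).

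Type I collagen, the main fibril of connective tissue, is a heterotrimer of the products of Col1a1 (NCBIM37 chromosome 11, 94797538 to 94814356) and Col1a2 (chromosome 6, 4454814 to 4491543). Col1a1 was at 2245, 2288 and 2578 FPKM in WAT day 4 control and at 1120.3, 1272 and 1380.3 with EGCG, so that every EGCG library was below every control library (-0.92 ± 0.10, adjusted p = 1.8e-05). On day 8 it was at 3223, 2431 and 3217 without EGCG and at 962, 1017 and 459.5 with it (-1.50 ± 0.10, adjusted p = 2.0e-07), again without overlap. Col1a1 overlaps Gm17329 on the opposite strand, and whether counting used the strand is not given in the sources used here.

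In BAT, Col1a1 was at 914, 926 and 1039.6 FPKM without and 676, 673 and 835 with EGCG on day 4 (-0.45 ± 0.10, adjusted p = 0.0038). On day 8 it was at 1029.8, 1060.4 and 1429 against 646, 667 and 748 (-0.67 ± 0.10, adjusted p = 9.6e-05). The groups did not overlap on either day. With quantile normalization neither change was called (-0.24, adjusted p = 0.085 on day 4 and -0.21, adjusted p = 0.10 on day 8).

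Col1a2 was at 2274, 2321 and 2243 FPKM in WAT day 4 control and 871, 1030.0 and 914 with EGCG (-1.28 ± 0.091, adjusted p = 4.6e-07). The day 8 values were 3280.1, 2715 and 2928 against 977, 1065 and 401 (-1.55 ± 0.091, adjusted p = 5.3e-08). In BAT it was at 880.0, 894 and 921 against 661, 688 and 709.8 on day 4 (-0.39 ± 0.091, adjusted p = 0.0036) and at 1178, 1208 and 1366 against 600.0, 602 and 588 on day 8 (-0.99 ± 0.091, adjusted p = 1.1e-06). Every EGCG library was below every control library of its depot and day, and the BAT day 4 call was lost with quantile normalization (-0.16, adjusted p = 0.31). The ratio of Col1a1 to Col1a2 lay in the range 0.874 to 1.51 over the 24 libraries.

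Type III collagen is a homotrimer of the Col3a1 product (chromosome 1, 45368383 to 45406551) and is laid down with type I in soft tissue. Col3a1 was at 6089, 6339 and 6585 FPKM in WAT day 4 control and 4982, 5458 and 5374 with EGCG. These libraries did not overlap, but the change did not pass the test (-0.25 ± 0.15, adjusted p = 0.17), and it did after median-ratio scaling (-0.39, adjusted p = 0.042). On day 8 in WAT it was at 6601, 4432 and 5146 against 2627, 2893 and 1012 (-0.97 ± 0.15, adjusted p = 0.00011), with no overlap.

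In BAT, Col3a1 was at 4492, 3968 and 4103 FPKM without and 2836, 3166 and 3353 with EGCG on day 4 (-0.49 ± 0.15, adjusted p = 0.016), and at 1554, 1606 and 1764 against 1171, 1096 and 1091 on day 8 (-0.48 ± 0.15, adjusted p = 0.011; with quantile normalization 0.048, adjusted p = 0.84). The groups did not overlap. The day 4 call was lost with quantile normalization (-0.14, adjusted p = 0.58) and without EGCG replicate 1 (-0.41, adjusted p = 0.10) or control replicate 1 (-0.40, adjusted p = 0.10), and the day 8 call without EGCG replicate 2 (-0.43, adjusted p = 0.065) or control replicate 2 (-0.46, adjusted p = 0.052).

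Type V collagen regulates fibril width and is built from the products of Col5a1, Col5a2 and Col5a3, which did not move together. Col5a1 was at 430.4, 449 and 450.2 FPKM in WAT day 4 control and 285, 307 and 295 with EGCG (-0.57 ± 0.053, adjusted p = 4.3e-06). WAT day 8 libraries had it at 516, 462 and 519 against 245, 247 and 95.7 (-0.99 ± 0.053, adjusted p = 2.9e-08). BAT cells had it at 242, 238 and 239 against 186, 181 and 191 on day 4 (-0.39 ± 0.053, adjusted p = 9.4e-05). In these comparisons no EGCG library reached a control library. On day 8 in BAT it was at 219, 222 and 269 against 212, 211 and 205, also without overlap, but was not called (-0.059 ± 0.053, adjusted p = 0.34). It was called as lower after median-ratio scaling (-0.25, adjusted p = 0.0015) and with both tables (-0.37, adjusted p = 1e-05).

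Col5a2 was higher with EGCG in BAT. It was at 328, 314 and 296 FPKM without and 441, 415 and 403 with EGCG on day 4 (0.41 ± 0.069, adjusted p = 0.00038), and at 332, 352 and 376 against 579, 566 and 557 on day 8 (0.74 ± 0.069, adjusted p = 1.1e-06), with no overlap on either day. In WAT day 4 it was at 491, 504 and 465 against 485, 497 and 484 (-0.020 ± 0.069, adjusted p = 0.82), and these groups overlapped.

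On day 8 in WAT, Col5a2 was at 565, 478 and 512 FPKM without and 578, 595 and 226 with EGCG (0.17 ± 0.069, adjusted p = 0.045). That call was lost without EGCG replicate 1 (0.20, adjusted p = 0.085), EGCG replicate 2 (0.15, adjusted p = 0.17) or control replicate 2 (0.053, adjusted p = 0.44), and its sign turned after median-ratio scaling (-0.028, adjusted p = 0.76). The ratio of Col5a2 to Col5a1 lay in the range 0.986 to 2.73 over the 24 libraries.

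Col5a3 was at 117, 139 and 137 FPKM without and 59.0, 58.2 and 23.6 with EGCG in WAT day 8 (-1.11 ± 0.061, adjusted p = 3.3e-08). In BAT cells it was at 88.3, 89.6 and 86.1 against 61.5, 60.5 and 64.0 on day 4 (-0.54 ± 0.061, adjusted p = 2.0e-05) and at 93.5, 96.1 and 100.4 against 50.2, 48.3 and 49.6 on day 8 (-0.93 ± 0.061, adjusted p = 5.6e-08). All 3 pairs were apart, with the EGCG libraries lower. In WAT day 4 it was at 164, 164 and 167 against 187, 183 and 177 (0.17 ± 0.061, adjusted p = 0.033), a call lost without any 1 of the 4 libraries (0.16 to 0.19, adjusted p = 0.073 to 0.13) and after median-ratio scaling (0.033, adjusted p = 0.69).

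Of the other fibrillar chains, Col27a1, known from cartilage, was at 54.0, 59.1 and 53.7 FPKM in WAT day 4 control and 23.9, 28.1 and 23.2 with EGCG (-1.10 ± 0.12, adjusted p = 1.2e-05). In BAT day 4 it was at 58.3, 53.2 and 44.9 against 21.7, 23.7 and 24.2 (-1.26 ± 0.12, adjusted p = 3.7e-06), and the groups were apart in both depots. On day 8 it was at 8.03, 5.79 and 5.96 against 7.30, 7.96 and 2.79 in WAT (0.14 ± 0.12, adjusted p = 0.32; called without control replicate 1 (0.34, adjusted p = 0.010)) and at 6.89, 7.16 and 6.27 against 8.18, 8.31 and 7.28 in BAT (0.20 ± 0.12, adjusted p = 0.14).

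**Figure D3:**
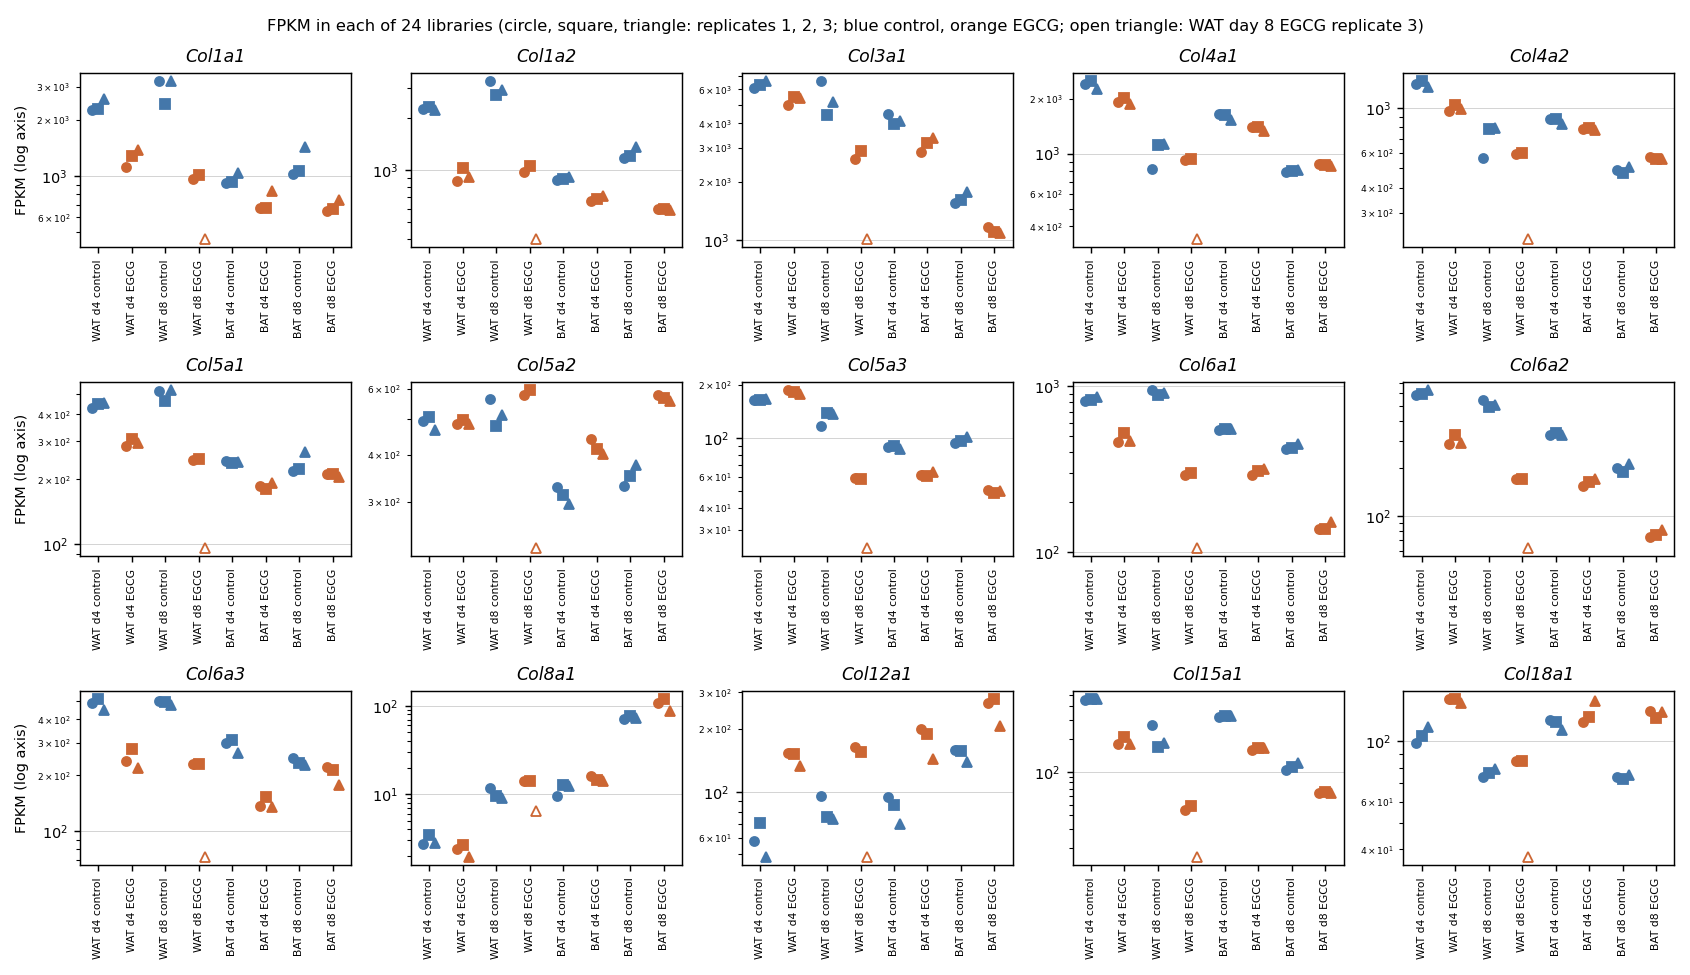
FPKM on a log axis in each of the 24 libraries for the 15 collagen genes with a group mean of at least 100 FPKM (blue control, orange EGCG, shapes are replicates, the open triangle as above). Orange points lie below blue ones in all 4 pairs for Col1a1, Col1a2, Col3a1, Col5a1, Col6a1, Col6a2, Col6a3 and Col15a1, and above them for Col12a1 except for the open triangle. Of these, Col3a1, Col5a1 and Col6a3 were not called in every pair.

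Basement membrane collagen is a network of type IV trimers, most widely made of the products of Col4a1 (chromosome 8, 11198423 to 11312826) and Col4a2 (chromosome 8, 11312805 to 11449287). Col4a1 was at 2393, 2490.2 and 2256 FPKM in WAT day 4 control and 1923, 2016 and 1859 with EGCG (-0.31 ± 0.10, adjusted p = 0.021). The groups did not overlap, but the call was lost without EGCG replicate 1 (-0.28, adjusted p = 0.10), control replicate 1 (-0.34, adjusted p = 0.052) or control replicate 2 (-0.28, adjusted p = 0.096). Col4a2 was at 1319, 1362 and 1275 against 966, 1037 and 984 (-0.42 ± 0.11, adjusted p = 0.0062), a call lost with quantile normalization (-0.022, adjusted p = 0.88).

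On day 8 the WAT control libraries differed among themselves, with Col4a1 at 825, 1108 and 1124 FPKM and Col4a2 at 565, 783 and 791. With EGCG Col4a1 was at 920.5, 932 and 341 and Col4a2 at 591, 595 and 222, and neither was called (-0.046 ± 0.10, adjusted p = 0.71, and -0.17 ± 0.11, adjusted p = 0.20). Within the first table the calls depended on single control libraries. Col4a1 was called as lower or as higher without control replicate 1 (-0.26, adjusted p = 0.00088) or control replicate 2 (0.17, adjusted p = 0.013), and Col4a2 as lower without control replicate 1 (-0.40, adjusted p = 4.1e-05) or after median-ratio scaling (-0.37, adjusted p = 0.014). With both tables in a replicate block, Col4a1 (-0.36, adjusted p = 0.00058) and Col4a2 (-0.47, adjusted p = 4.7e-05) were called as lower. Both calls stayed without the third WAT day 8 EGCG library (-0.34, adjusted p = 0.0041 and -0.45, adjusted p = 0.00050).

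In BAT, Col4a1 was at 1638, 1623 and 1527 FPKM without and 1401, 1406 and 1320.5 with EGCG on day 4 (-0.22 ± 0.10, adjusted p = 0.094), and at 796, 803 and 811 against 880.1, 863 and 854 on day 8 (0.12 ± 0.10, adjusted p = 0.28). Col4a2 was at 879, 877 and 835 against 786, 796 and 778 on day 4 (-0.15 ± 0.11, adjusted p = 0.28), and at 489, 477 and 510.0 against 568, 559 and 559 on day 8 (0.22 ± 0.11, adjusted p = 0.083). None of these groups overlapped. Neither chain was called in BAT, but with quantile normalization both were called as higher on day 8 (0.44, adjusted p = 0.00012 for Col4a1 and 0.39, adjusted p = 0.0058 for Col4a2). With only the groups compared both were so called too (0.12, adjusted p = 0.045 and 0.22, adjusted p = 0.0050), and Col4a2 with voom (0.22, adjusted p = 0.047). On day 4 Col4a1 was called as lower with only the groups compared (-0.22, adjusted p = 0.031) and with both tables (-0.27, adjusted p = 0.0065). The ratio of Col4a1 to Col4a2 lay in the range 1.42 to 1.99 over the 24 libraries. These genes overlap each other on opposite strands.

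Col4a5, a type IV chain of other basement membranes, was at 1.51, 1.91 and 2.03 FPKM in BAT day 4 control and 4.75, 4.69 and 3.72 with EGCG (1.08 ± 0.074, adjusted p = 3.3e-07). On day 8 in BAT it was at 8.93, 9.53 and 9.06 against 13.01, 14.3 and 12.2 (0.52 ± 0.074, adjusted p = 4.9e-05), and the EGCG libraries were higher without overlap on both days. In WAT it was at 2.36, 2.14 and 1.78 against 2.19, 2.12 and 1.68 on day 4 (-0.042 ± 0.074, adjusted p = 0.66) and at 14.2, 13.9 and 12.7 against 11.1, 10.7 and 3.56 on day 8 (-0.34 ± 0.074, adjusted p = 0.0017).

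Type XII collagen sits on the surface of type I fibrils. Its gene Col12a1 (chromosome 9, 79446798 to 79566638) was at 58.1, 70.5 and 48.6 FPKM in WAT day 4 control and 154, 152 and 133 with EGCG (1.25 ± 0.10, adjusted p = 1.5e-06). The day 8 values were 95.0, 75.5 and 73.6 against 164, 156 and 48.7 (0.91 ± 0.10, adjusted p = 1.1e-05). BAT levels were 94.8, 86.2 and 69.7 against 201, 189 and 144 on day 4 (1.10 ± 0.10, adjusted p = 3.9e-06) and at 159, 158 and 139 against 267, 279 and 207 on day 8 (0.78 ± 0.10, adjusted p = 2.4e-05). Apart from the third WAT day 8 EGCG library, each EGCG library was above each control library of its depot and day. The ratio of Col12a1 to Col1a1 lay in the range 0.0189 to 0.418 over the 24 libraries. Col12a1 overlaps 4930562D21Rik on the opposite strand.

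Col14a1, which also binds fibrils, was at 3.22, 3.69 and 3.12 FPKM in WAT day 4 control and 0.72, 0.761 and 0.522 with EGCG (-1.35 ± 0.22, adjusted p = 0.00026). It fell in WAT day 8 (-1.49 ± 0.22, adjusted p = 8.1e-05), in BAT day 4 (-0.89 ± 0.22, adjusted p = 0.0049) and in BAT day 8 (-0.57 ± 0.22, adjusted p = 0.031), the last not without any 1 of the 4 libraries (-0.67 to -0.48, adjusted p = 0.051 to 0.14).

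Type VI collagen is a heterotrimer of the products of Col6a1, Col6a2 and Col6a3, and adipocytes and their precursors both make it. Col6a1 (chromosome 10, 76171537 to 76188913) was at 809.5, 821 and 856 FPKM in WAT day 4 control and 461, 521 and 466 with EGCG (-0.73 ± 0.057, adjusted p = 8.9e-07). WAT day 8 libraries had it at 945, 880.0 and 914 against 291, 299 and 106 (-1.62 ± 0.057, adjusted p = 8.1e-10). In BAT the levels were 546, 554 and 548 against 293, 306 and 316 on day 4 (-0.88 ± 0.057, adjusted p = 2.2e-07) and at 417, 426 and 445 against 137, 137 and 152 on day 8 (-1.61 ± 0.057, adjusted p = 3.2e-10). No EGCG library reached a control library of its depot and day.

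Col6a2 (chromosome 10, 76058507 to 76086375), next to Col6a1 in the genome, was at 589.8, 591 and 630.4 FPKM in WAT day 4 control and 284, 327 and 291 with EGCG (-0.95 ± 0.066, adjusted p = 3.9e-07). The day 8 values were 544, 490.0 and 510.1 against 171, 172 and 62.4 (-1.59 ± 0.066, adjusted p = 3.9e-09). BAT libraries had it at 326, 334 and 328 against 155, 164 and 171 on day 4 (-1.05 ± 0.066, adjusted p = 1.9e-07) and at 201, 191 and 213 against 72.9, 75.5 and 81.3 on day 8 (-1.39 ± 0.066, adjusted p = 3.8e-09). The EGCG libraries were lower without overlap in all 4 pairs, and the ratio of Col6a2 to Col6a1 lay in the range 0.448 to 0.736.

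Col6a3 (chromosome 1, 92663435 to 92740529) was at 491, 514 and 449.7 FPKM in WAT day 4 control and 239, 278 and 219 with EGCG (-0.96 ± 0.071, adjusted p = 6.0e-07). WAT day 8 libraries had it at 504, 497 and 478 against 230.4, 231 and 72.8 (-1.11 ± 0.071, adjusted p = 9.8e-08). In BAT day 4 it was at 298, 311 and 263 against 137, 153 and 135 (-1.07 ± 0.071, adjusted p = 2.6e-07), and in these 3 pairs the EGCG libraries were lower without overlap. In BAT day 8 it was at 248, 234 and 228 against 222, 214 and 178, also lower without overlap, but was not called (-0.14 ± 0.071, adjusted p = 0.091). It was called as lower after median-ratio scaling (-0.33, adjusted p = 0.0015), with only the groups compared (-0.14, adjusted p = 0.040) and with both tables (-0.41, adjusted p = 4.3e-06).

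The effect of EGCG itself was compared between the depots by the interaction term, BAT minus WAT. On day 8 this difference was 0.97 ± 0.10, adjusted p = 2.4e-05 for Col6a3, 0.010 ± 0.080, adjusted p = 0.93 for Col6a1 and 0.20 ± 0.094, adjusted p = 0.12 for Col6a2 (called without WAT day 8 control replicate 2 (0.27, adjusted p = 0.038)). The ratio of Col6a3 to Col6a1 was 0.595, 0.548 and 0.513 in BAT day 8 control libraries and 1.62, 1.56 and 1.17 with EGCG. In the other 18 libraries it lay between 0.428 and 0.791. Among these, WAT day 8 moved the same way to a lesser degree. The ratio there was 0.5335, 0.565 and 0.523 in control libraries and 0.791, 0.773 and 0.689 with EGCG, without overlap. A ratio within a library shows unequal change of the chains.

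Over all collagen genes tested, the EGCG effect differed between the depots in 13 of 26 on day 4, 8 with a difference above 0 and 5 below it, where 28.1% of all genes were called, 12.0% above and 16.1% below 0. On day 8 it differed in 13, 9 above and 4 below 0, against 39.2% of all genes, 19.4% above and 19.7% below.

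**Figure D4:**
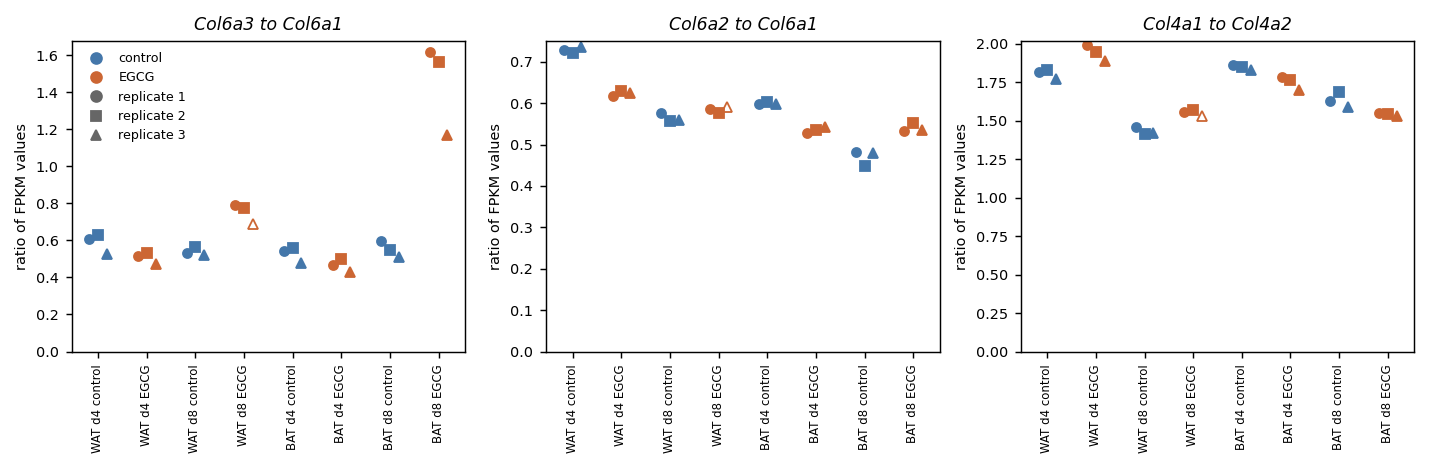
Ratio of the FPKM values of chains that share a trimer, in each of the 24 libraries (blue control, orange EGCG, shapes are replicates, axes start at 0). Col6a3 to Col6a1 stands apart in BAT day 8 EGCG, at 1.62, 1.56 and 1.17, while Col6a2 to Col6a1 spans 0.448 to 0.736 and Col4a1 to Col4a2 1.42 to 1.99.

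Type VIII collagen is a short-chain network collagen of the products of Col8a1 and Col8a2, and these genes moved apart. Col8a2 (chromosome 4, 125964037 to 125991574) was at 16.1, 13.1 and 11.9 FPKM in WAT day 4 control and 0.167, 0.188 and 0.207 with EGCG (-3.72 ± 0.15, adjusted p = 6.2e-09). The day 8 values were 4.66, 2.94 and 2.91 against 0.275, 0.307 and 0.0775 (-1.87 ± 0.15, adjusted p = 7.5e-07). In BAT it was at 2.72, 3.46 and 3.53 against 0.515, 0.688 and 0.827 on day 4 (-1.35 ± 0.15, adjusted p = 2.0e-05) and at 5.26, 5.66 and 7.71 against 0.917, 1.02 and 1.02 on day 8 (-1.71 ± 0.15, adjusted p = 8.4e-07). The EGCG libraries were lower without overlap in all 4 pairs. Col8a2 overlaps AL606976.2 on the opposite strand.

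Col8a1 was at 70.4, 76.1 and 72.7 FPKM in BAT day 8 control and 108, 119 and 87.9 with EGCG, higher without overlap (0.62 ± 0.13, adjusted p = 0.00081). In BAT day 4 it was at 9.62, 12.8 and 12.49 against 15.9, 14.7 and 14.3 (0.43 ± 0.13, adjusted p = 0.015), a call lost without EGCG replicate 1 (0.37, adjusted p = 0.090) or control replicate 1 (0.24, adjusted p = 0.16). In WAT day 8 it was at 11.8, 9.60 and 9.02 against 14.2, 14.1 and 6.44 (0.38 ± 0.13, adjusted p = 0.021), which was lost without EGCG replicate 1 (0.37, adjusted p = 0.077), EGCG replicate 2 (0.38, adjusted p = 0.067) or control replicate 2 (0.24, adjusted p = 0.17), after median-ratio scaling (0.19, adjusted p = 0.22) and with quantile normalization (0.21, adjusted p = 0.17). In WAT day 4 it was at 2.76, 3.50 and 2.81 against 2.42, 2.67 and 1.95 (-0.22 ± 0.13, adjusted p = 0.17; called with quantile normalization, -0.35, adjusted p = 0.035).

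The multiplexins, types XV and XVIII, lie next to basement membranes. Col15a1 (chromosome 4, 47221033 to 47326039) was at 459, 463 and 464 FPKM in WAT day 4 control and 179, 209 and 178 with EGCG (-1.25 ± 0.16, adjusted p = 4.1e-05). WAT day 8 libraries had it at 267, 167 and 184 against 44.7, 48.96 and 16.6 (-2.15 ± 0.16, adjusted p = 2.9e-07). BAT cells had it at 315, 326 and 322 against 158, 164 and 164 on day 4 (-0.99 ± 0.16, adjusted p = 0.00026) and at 103, 111 and 121 against 64.6, 64.7 and 63.8 on day 8 (-0.72 ± 0.16, adjusted p = 0.0013). No EGCG library reached a control library of its depot and day. Col15a1 overlaps Gm12426 on the opposite strand.

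Col18a1 (chromosome 10, 76514923 to 76629293), whose product releases endostatin, was at 98.9, 104 and 113 FPKM in WAT day 4 control and 143, 143 and 139 with EGCG (0.49 ± 0.041, adjusted p = 1.7e-06). In BAT day 8 it was at 73.6, 72.6 and 74.9 against 129, 122 and 129 (0.77 ± 0.041, adjusted p = 9.1e-09), and both pairs were apart with EGCG higher. In BAT day 4 it was at 119.7, 118 and 110.0 against 118, 123 and 141 (0.015 ± 0.041, adjusted p = 0.80). In WAT day 8 it was at 73.9, 76.7 and 79.1 against 84.7, 84.6 and 37.5 (0.17 ± 0.041, adjusted p = 0.0037), not called after median-ratio scaling (-0.032, adjusted p = 0.55) or with quantile normalization (0.037, adjusted p = 0.56). Col18a1 overlaps Slc19a1 on the opposite strand.

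Col28a1 (chromosome 6, 7947808 to 8142617), known from peripheral nerve, was at 73.8, 73.9 and 57.9 FPKM in BAT day 8 control and 15.2, 14.3 and 12.96 with EGCG (-2.24 ± 0.13, adjusted p = 1.8e-08), and in WAT day 8 at 56.0, 46.4 and 40.3 against 17.2, 20.1 and 6.29 (-1.41 ± 0.13, adjusted p = 1.9e-06). On day 4 it was at 4.98, 5.59 and 5.29 against 2.78, 3.74 and 2.11 in WAT (-0.57 ± 0.13, adjusted p = 0.0030) and at 5.45, 5.61 and 5.14 against 8.63, 11.03 and 8.79 in BAT (0.72 ± 0.13, adjusted p = 0.00065). It was lower with EGCG in 3 pairs and higher in BAT day 4, without overlap in any of the 4.

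Col23a1, a transmembrane collagen, was at 2.10, 2.48 and 2.35 FPKM in WAT day 4 control and 4.94, 4.55 and 5.67 with EGCG (0.80 ± 0.15, adjusted p = 0.00071), and in WAT day 8 at 0.988, 0.55 and 0.682 against 0.918, 0.767 and 0.229 (0.068 ± 0.15, adjusted p = 0.71). In BAT cells it was at 10.9, 7.56 and 8.43 against 6.70, 6.55 and 7.63 on day 4 (-0.41 ± 0.15, adjusted p = 0.039) and at 0.783, 0.793 and 0.85 against 0.2, 0.254 and 0.317 on day 8 (-0.54 ± 0.15, adjusted p = 0.0055). The pairs of WAT day 4 and BAT day 8 did not overlap, while those of WAT day 8 and BAT day 4 did. The BAT day 4 call was lost without EGCG replicate 1 (-0.42, adjusted p = 0.11), EGCG replicate 2 (-0.39, adjusted p = 0.13) or control replicate 1 (-0.17, adjusted p = 0.38).

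The 5 remaining tested chains had highest group means from 3.78 to 51.0 FPKM. Col11a1, a fibrillar chain of cartilage, was at 18.7, 18.4 and 16.7 FPKM in BAT day 4 control and 36.9, 33.1 and 28.0 with EGCG, higher without overlap (0.88 ± 0.070, adjusted p = 1.1e-06). It fell in WAT day 4 (-0.52 ± 0.070, adjusted p = 7.7e-05) and BAT day 8 (-0.32 ± 0.070, adjusted p = 0.0013), and in WAT day 8 (-0.23 ± 0.070, adjusted p = 0.013) but not without EGCG replicate 2 (-0.13, adjusted p = 0.15) or control replicate 1 (-0.21, adjusted p = 0.057). Its partner Col11a2 fell in BAT on day 4 (-0.49 ± 0.080, adjusted p = 0.00032) and on day 8 (-0.27 ± 0.080, adjusted p = 0.010), the latter not without EGCG replicate 1 (-0.23, adjusted p = 0.063) or control replicate 1 (-0.21, adjusted p = 0.080).

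Col16a1, a fibril-associated chain, fell on day 8 in WAT (-0.68 ± 0.12, adjusted p = 0.00032) and in BAT (-0.57 ± 0.12, adjusted p = 0.00089). Col20a1 fell in BAT day 8 (-0.37 ± 0.074, adjusted p = 0.00071) and rose in WAT day 4 (0.27 ± 0.074, adjusted p = 0.0085), the rise not without control replicate 2 (0.23, adjusted p = 0.064), after median-ratio scaling (0.17, adjusted p = 0.073) or with quantile normalization (0.16, adjusted p = 0.090). Col7a1, the chain of the anchoring fibrils of skin, rose in WAT day 4 (0.27 ± 0.097, adjusted p = 0.036), but not without any 1 of the 4 libraries (0.23 to 0.31, adjusted p = 0.061 to 0.16), after median-ratio scaling (0.15, adjusted p = 0.21) or with quantile normalization (0.16, adjusted p = 0.20). It fell in WAT day 8 (-0.26 ± 0.097, adjusted p = 0.034), but not without EGCG replicate 2 (-0.20, adjusted p = 0.18), control replicate 1 (-0.28, adjusted p = 0.068) or control replicate 2 (-0.24, adjusted p = 0.11).

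Between day 4 and day 8, tested collagen genes changed in both directions in control cells of both depots, as did genes in general. In WAT 10 of the 26 genes were higher on day 8 and 10 lower, where 61.0% of all genes were called, 27.7% higher and 33.2% lower. In BAT 10 were higher and 12 lower, against 69.2% called, 28.7% higher and 40.4% lower. After median-ratio scaling, which moved the median of all genes in BAT from -0.10 to 0.018, the counts there were 13 and 12. In both depots 7 genes were higher (Col12a1, Col14a1, Col16a1, Col1a2, Col28a1, Col4a5, Col8a1) and 8 lower (Col11a2, Col15a1, Col18a1, Col23a1, Col27a1, Col4a1, Col4a2, Col6a2). The WAT call of Col1a2 (0.38 ± 0.091, adjusted p = 0.0035) was lost with quantile normalization (0.25, adjusted p = 0.10).

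Of these, Col28a1 was at 4.98, 5.59 and 5.29 FPKM on day 4 and 56.0, 46.4 and 40.3 on day 8 in WAT (3.05 ± 0.13, adjusted p = 6.2e-09), and at 5.45, 5.61 and 5.14 and 73.8, 73.9 and 57.9 in BAT (3.52 ± 0.13, adjusted p = 1.0e-09). Col27a1 went the other way, from 54.0, 59.1 and 53.7 to 8.03, 5.79 and 5.96 in WAT (-2.88 ± 0.12, adjusted p = 4.9e-09) and from 58.3, 53.2 and 44.9 to 6.89, 7.16 and 6.27 in BAT (-2.82 ± 0.12, adjusted p = 2.3e-09). The days did not overlap in either gene.

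The type IV chains went opposite ways. Col4a1 changed by -1.35 ± 0.10, adjusted p = 3.6e-07 in WAT (2442 to 966 FPKM, means of replicates 1 and 2) and by -1.03 ± 0.10, adjusted p = 2.2e-06 in BAT (1631 to 799). Col4a5 changed by 2.21 ± 0.074, adjusted p = 1.2e-09 in WAT (2.25 to 14.1 FPKM) and by 1.92 ± 0.074, adjusted p = 1.4e-09 in BAT (1.71 to 9.23).

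The chains Col3a1 and Col1a2 parted over these days in BAT. Col3a1 went from 4492, 3968 and 4103 FPKM to 1554, 1606 and 1764 (-1.42 ± 0.15, adjusted p = 4.0e-06), and Col1a2 from 880.0, 894 and 921 to 1178, 1208 and 1366 (0.43 ± 0.091, adjusted p = 0.0013), both without overlap. In WAT, Col3a1 overlapped between the days and was not called (-0.20 ± 0.15, adjusted p = 0.26), but it was without WAT day 8 control replicate 1 (-0.49, adjusted p = 0.0017). The WAT call of Col12a1 (0.40 ± 0.10, adjusted p = 0.0052) was lost without WAT day 4 control replicate 1 (0.26, adjusted p = 0.065) or WAT day 8 control replicate 1 (0.24, adjusted p = 0.053), and that of Col6a2 (-0.19 ± 0.066, adjusted p = 0.024) without WAT day 4 control replicate 1 (-0.20, adjusted p = 0.077), WAT day 4 control replicate 2 (-0.19, adjusted p = 0.081) or WAT day 8 control replicate 2 (-0.12, adjusted p = 0.18), after median-ratio scaling (-0.16, adjusted p = 0.064) and with quantile normalization (-0.18, adjusted p = 0.083). The ratio of Col3a1 to Col1a1 lay in the range 1.24 to 4.91 over the 24 libraries.

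**Figure D5:**
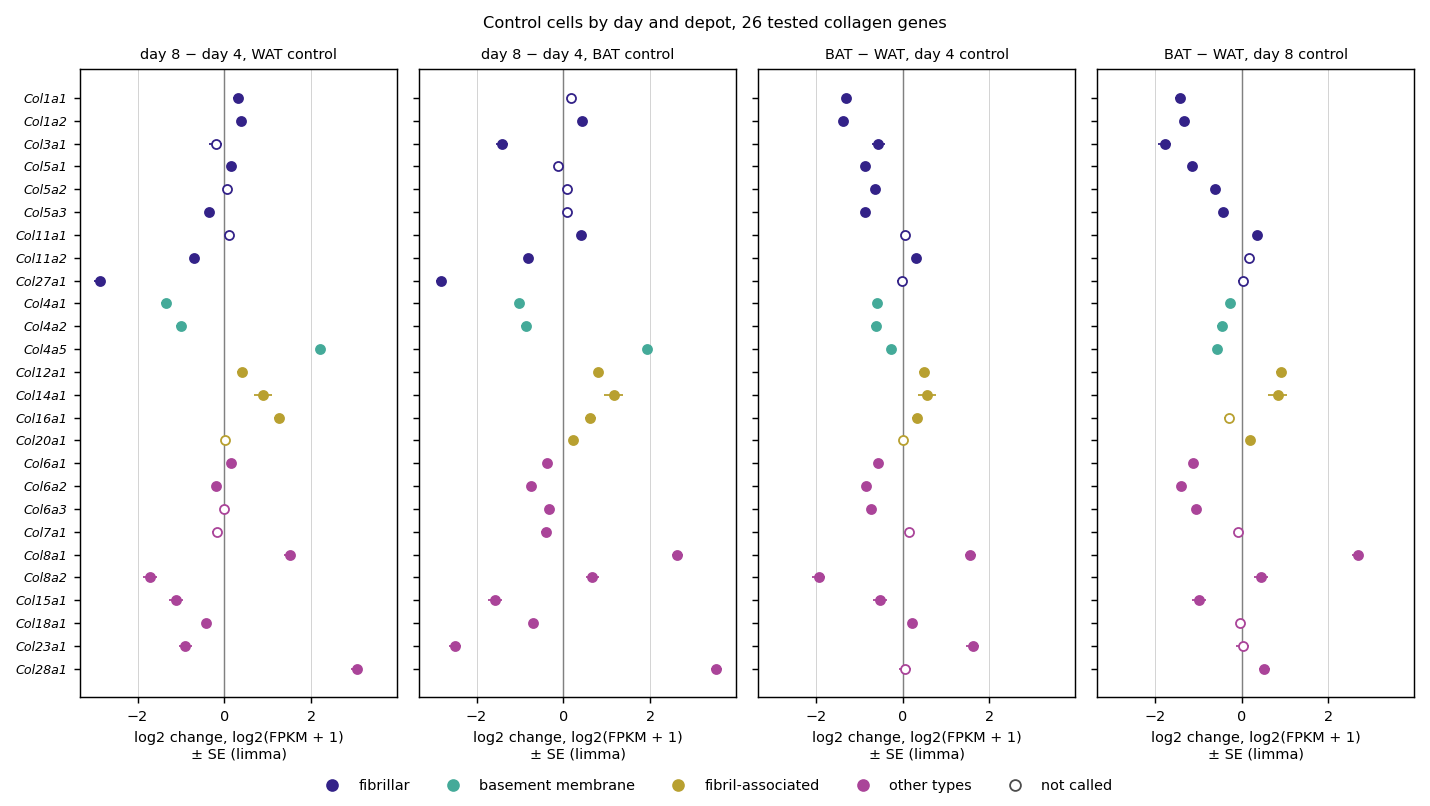
Difference between days (day 8 minus day 4, 2 panels) and between depots (BAT minus WAT, 2 panels) in control cells for the 26 tested collagen genes, on the log2(FPKM + 1) scale (open points not called). Bars are SE from limma, with 2 libraries a group and 1 spread per gene taken from all 16 libraries. Col28a1 lies farthest to the right and Col27a1 farthest to the left in both day panels, and most fibrillar chains lie left of 0 in both depot panels.

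Most collagen genes called between the depots were lower in BAT than in WAT control cells. On day 4, 14 of the 26 genes were lower in BAT and 7 higher (median -0.39), where 55.8% of all genes were called, 41.4% higher and 14.4% lower. On day 8, 13 were lower and 7 higher (median -0.27), against 53.6% called, 31.6% higher and 22.0% lower. Median-ratio scaling moved the median of all genes on day 4 from 0.15 to 0.016 and gave 14 lower and 3 higher. At the threshold used, 13 genes were lower in BAT on both days (Col15a1, Col1a1, Col1a2, Col3a1, Col4a1, Col4a2, Col4a5, Col5a1, Col5a2, Col5a3, Col6a1, Col6a2, Col6a3) and 3 higher (Col12a1, Col14a1, Col8a1). Some of these calls rested on single libraries. That of Col4a1 on day 8 (-0.26 ± 0.10, adjusted p = 0.046) was lost without BAT day 8 control replicate 1 (-0.25, adjusted p = 0.13), BAT day 8 control replicate 2 (-0.26, adjusted p = 0.12) or WAT day 8 control replicate 2 (-0.045, adjusted p = 0.47). The day 4 call of Col15a1 (-0.52 ± 0.16, adjusted p = 0.014) was lost without BAT day 4 control replicate 1 (-0.50, adjusted p = 0.063), WAT day 4 control replicate 1 (-0.53, adjusted p = 0.051) or WAT day 4 control replicate 2 (-0.52, adjusted p = 0.058), and that of Col4a5 (-0.27 ± 0.074, adjusted p = 0.0099) without BAT day 4 control replicate 1 (-0.16, adjusted p = 0.10) or WAT day 4 control replicate 1 (-0.22, adjusted p = 0.071). The day 4 call of Col14a1 (0.56 ± 0.22, adjusted p = 0.043) was lost without any 1 of the 4 libraries (0.48 to 0.64, adjusted p = 0.081 to 0.17), after median-ratio scaling (0.43, adjusted p = 0.12) and with quantile normalization (0.38, adjusted p = 0.18).

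Type I collagen was lower in BAT on both days, from the control values given above. Col1a1 differed by -1.30 ± 0.10, adjusted p = 2.1e-06 on day 4 and by -1.42 ± 0.10, adjusted p = 5.4e-07 on day 8, and Col1a2 by -1.37 ± 0.091, adjusted p = 5.6e-07 and -1.32 ± 0.091, adjusted p = 3.4e-07, with no overlap between the depots. Col3a1 differed by -1.77 ± 0.15, adjusted p = 1.5e-06 on day 8 and by -0.56 ± 0.15, adjusted p = 0.0073 on day 4, the latter not called without BAT day 4 control replicate 2 (-0.47, adjusted p = 0.059).

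Col8a1 was at 2.76, 3.50 and 2.81 FPKM in WAT and 9.62, 12.8 and 12.49 in BAT on day 4 (1.56 ± 0.13, adjusted p = 2.4e-06), and at 11.8, 9.60 and 9.02 against 70.4, 76.1 and 72.7 on day 8 (2.67 ± 0.13, adjusted p = 2.1e-08), without overlap. Its partner Col8a2 was lower in BAT on day 4 (-1.93 ± 0.15, adjusted p = 2.0e-06) and higher on day 8 (0.45 ± 0.15, adjusted p = 0.027), the latter not without BAT day 8 control replicate 1 (0.49, adjusted p = 0.062), BAT day 8 control replicate 2 (0.40, adjusted p = 0.12) or WAT day 8 control replicate 2 (0.19, adjusted p = 0.28). Col23a1 was at 2.10, 2.48 and 2.35 in WAT and 10.9, 7.56 and 8.43 in BAT on day 4 (1.62 ± 0.15, adjusted p = 5.1e-06).

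Genes that modify, export, process, cross-link and bind collagen were described from 5 lists with 41 tested members. With EGCG 19, 20, 25 and 28 of them rose and 14, 8, 5 and 8 fell in WAT day 4, WAT day 8, BAT day 4 and BAT day 8. Over all genes 34.4%, 44.7%, 27.9% and 46.5% were called as higher and 19.3%, 18.9%, 20.6% and 26.1% as lower. The 5 lysyl oxidase genes, Lox and Loxl1 to Loxl4, whose products cross-link collagen, rose in each comparison except Loxl4 in WAT day 8 (0.067 ± 0.087, adjusted p = 0.53). After median-ratio scaling 4, 4, 5 and 5 of the 5 rose.

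Lox rose from 433 ± 34.7 to 1113 ± 69.3 FPKM (mean ± SD of 2 libraries) in BAT day 4 (1.36 ± 0.066, adjusted p = 2.7e-08 in limma), and Loxl2 from 141 ± 4.76 to 347 ± 3.01 in WAT day 4 (1.30 ± 0.049, adjusted p = 3.4e-09 in limma). Of 9 genes of procollagen folding and export, 7 fell in WAT day 4 (19.3% of all genes were called as lower there) and 8 rose in BAT day 8 (46.5% of all genes called as higher). Serpinh1, the collagen chaperone of the endoplasmic reticulum, went from 982 ± 15.1 to 682 ± 10.9 FPKM in WAT day 4 (-0.52 ± 0.061, adjusted p = 2.5e-05 in limma), and Creb3l1, a regulator of secretory genes, from 16.3 ± 1.20 to 45.4 ± 0.417 in BAT day 8 (1.43 ± 0.052, adjusted p = 4.1e-10 in limma). Between the days, 9 of them fell in WAT control cells and 9 in BAT control cells, where 33.2% and 40.4% of all genes were called as lower, and after median-ratio scaling 8 and 7.

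P4ha2, a subunit of prolyl hydroxylase, rose from 86.1 ± 1.15 to 235 ± 0.834 FPKM in WAT day 4 (1.44 ± 0.068, adjusted p = 1.8e-08 in limma), and Plod1, a lysyl hydroxylase, fell from 124 ± 0.414 to 45.4 ± 1.57 in BAT day 8 (-1.43 ± 0.040, adjusted p = 5.4e-11 in limma). Bmp1, which trims procollagen, rose from 158 ± 6.03 to 339 ± 25.3 FPKM in WAT day 4 (1.09 ± 0.072, adjusted p = 2.5e-07 in limma). Of the receptors, Itga11, an integrin subunit that binds fibrillar collagen, rose from 2.27 ± 0.00569 to 12.7 ± 0.864 FPKM in WAT day 4 (2.07 ± 0.14, adjusted p = 3.4e-07 in limma), and Itga1, of an integrin that binds type IV collagen, fell from 21.4 ± 0.74 to 5.72 ± 0.34 in BAT day 8 (-1.74 ± 0.12, adjusted p = 6.6e-08 in limma).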

How the data were processed

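24 RNA sequencing libraries of cultured mouse stromal vascular cells were used, in 8 groups of 3 taken from the labels. The authors deposited FPKM values in 2 tables made separately. The submitters' processing notes name FastQC 0.11.9, HISAT2 2.2.0, HTSeq 0.11 and the build mm9 with no role, and how counting treated strand is not given in the sources used here. All 37310 gene lengths were those of the longest transcript in GENCODE vM1 (NCBIM37), which also gave symbols and coordinates. FPKM multiplied by gene length gave whole reads for 100% of values (tolerance 0.01), from which depth was taken.

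Genes at 1 FPKM or more in at least 2 of 16 libraries (replicates 1 and 2) were fitted as log2(FPKM + 1), a pseudocount of 1, with 1 mean per group in limma 3.58.1 (R 4.3.3, eBayes with a trend), two-sided, with Benjamini-Hochberg adjustment within each of 10 contrasts. All groups shared 1 estimate of the spread per gene, and residual and prior degrees of freedom came to 11.4. The fit was tested on simulated data. Replicate 3 has 1 library per group and was used for values and direction. Alternatives were a pseudocount of 0.1, no filter, median-ratio scaling, quantile normalization, voom on recovered reads, only the groups compared, a replicate block, both tables, and leaving out each library.

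Values in every library are given for collagen genes with a group mean of at least 100 FPKM, for the called gene with the highest and the lowest difference at 5 FPKM or more in each contrast, and for chains sharing a trimer with these. Pathway genes named are those with the largest called change of their list in a contrast. Members, lists and rules were chosen with earlier results of these data known.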

Additional observations from a re-analysis of the deposited data

Results flagged for a closer look

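The effect of EGCG differed between the depots in 13 of the 26 tested collagen genes on day 4 and in 13 on day 8 (interaction term in limma, BAT minus WAT on the log2(FPKM + 1) scale, adjusted over all genes tested). On day 4 the difference was above 0 for Col1a1 (0.48, adjusted p = 0.031), Col1a2 (0.88, adjusted p = 0.00048), Col4a5 (1.12, adjusted p = 2.1e-05), Col5a2 (0.43, adjusted p = 0.0068), Col8a1 (0.64, adjusted p = 0.020), Col8a2 (2.37, adjusted p = 1.8e-05), Col11a1 (1.40, adjusted p = 3.4e-06) and Col28a1 (1.29, adjusted p = 0.00040). It was below 0 for Col5a3 (-0.71, adjusted p = 0.00015), Col11a2 (-0.48, adjusted p = 0.0083), Col18a1 (-0.48, adjusted p = 0.00016), Col20a1 (-0.38, adjusted p = 0.020) and Col23a1 (-1.21, adjusted p = 0.0015). In replicate 3, after scaling, 12 of the 13 had the same sign, and Col18a1 did not. With both tables in a replicate block, Col20a1 was not called (-0.21, adjusted p = 0.28). The call of Col1a1 was lost without any 1 of 7 of the 8 libraries, all but WAT day 4 EGCG replicate 2 (0.39 to 0.49, adjusted p = 0.065 to 0.12), that of Col8a1 without BAT day 4 EGCG replicate 1 (0.59, adjusted p = 0.070), BAT day 4 control replicate 1 (0.46, adjusted p = 0.072), WAT day 4 EGCG replicate 1 (0.59, adjusted p = 0.068) or WAT day 4 control replicate 2 (0.51, adjusted p = 0.080), and that of Col20a1 without BAT day 4 EGCG replicate 2 (-0.36, adjusted p = 0.059), BAT day 4 control replicate 2 (-0.28, adjusted p = 0.076), WAT day 4 EGCG replicate 1 (-0.37, adjusted p = 0.055) or WAT day 4 control replicate 2 (-0.33, adjusted p = 0.070).

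On day 8 the difference was above 0 for Col1a1 (0.83, adjusted p = 0.0010), Col1a2 (0.56, adjusted p = 0.0050), Col4a5 (0.86, adjusted p = 7.6e-05), Col5a1 (0.93, adjusted p = 4.5e-06), Col5a2 (0.57, adjusted p = 0.00080), Col6a3 (0.97, adjusted p = 2.4e-05), Col14a1 (0.91, adjusted p = 0.033), Col15a1 (1.44, adjusted p = 0.00039) and Col18a1 (0.61, adjusted p = 1.4e-05). It was below 0 for Col11a2 (-0.37, adjusted p = 0.021), Col20a1 (-0.42, adjusted p = 0.0083), Col23a1 (-0.61, adjusted p = 0.036) and Col28a1 (-0.84, adjusted p = 0.0037). In replicate 3, after scaling, 13 of the 13 had the same sign. With quantile normalization Col1a2 was not called (0.41, adjusted p = 0.085). The call of Col14a1 was lost without BAT day 8 EGCG replicate 1 (1.01, adjusted p = 0.050), BAT day 8 EGCG replicate 2 (0.82, adjusted p = 0.10), BAT day 8 control replicate 1 (0.93, adjusted p = 0.070), BAT day 8 control replicate 2 (0.90, adjusted p = 0.079), WAT day 8 EGCG replicate 1 (0.84, adjusted p = 0.093) or WAT day 8 EGCG replicate 2 (0.98, adjusted p = 0.056). That of Col11a2 was lost without BAT day 8 EGCG replicate 1 (-0.34, adjusted p = 0.070), BAT day 8 control replicate 1 (-0.32, adjusted p = 0.076), WAT day 8 EGCG replicate 2 (-0.36, adjusted p = 0.058) or WAT day 8 control replicate 1 (-0.34, adjusted p = 0.057), and that of Col23a1 without any 1 of 7 of the 8 libraries, all but WAT day 8 control replicate 1 (-0.67 to -0.43, adjusted p = 0.055 to 0.12).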

How the results depend on the processing

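The number of collagen genes called stayed within 1.5 times of the reported one in each comparison and alternative except 1: day 8 against day 4 in WAT control cells gave 13 in place of 20 when only the groups compared were fitted. Leaving out 1 library gave 16 to 18 called genes for EGCG in WAT day 4, 16 to 21 in WAT day 8, 17 to 20 in BAT day 4 and 18 in BAT day 8. It gave 15 to 20 between days in WAT, 21 to 22 in BAT, 17 to 19 between depots on day 4, 17 to 20 on day 8, and 10 to 13 and 10 to 15 for the differences between depots in the EGCG effect. For EGCG in WAT day 8, the sign turned for Col18a1 with median-ratio scaling (-0.032, adjusted p = 0.55) and with both tables less the third WAT day 8 EGCG library (-0.042, adjusted p = 0.55), and for Col5a2 with median-ratio scaling (-0.028, adjusted p = 0.76), with both tables (-0.029, adjusted p = 0.68) and less that library (-0.035, adjusted p = 0.67). Col4a1 there ranged from -0.26 to 0.17 when a control library was left out. Col3a1 for EGCG in BAT day 8 turned with quantile normalization (0.048, adjusted p = 0.84), and Col18a1 between depots on day 4 with both tables (-0.020, adjusted p = 0.77) and less that library (-0.020, adjusted p = 0.76). Among results for single genes, no filter ended 21 calls, the groups compared alone ended 21 and added 7, a pseudocount of 0.1 ended 1 and added 1, voom added 5, and both tables ended 5 besides those of Col5a2 and Col18a1 whose sign turned, and added 22. Quantile normalization ended 18 and added 11, and median-ratio scaling ended 10 and added 9, besides the calls above whose sign turned. The fits that left out a library ended 108 in all and added 12, Col4a1 in WAT day 8 aside. The causes were not tested. Values near the floor rest on few reads, and 2 libraries a group limit the precision.

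Over the genes tested, groups shared little of the difference between replicates 1 and 2, whose correlation over 28 pairs of groups lay from -0.079 to 0.081. This cannot decide whether replicate numbers pair the samples, because a difference shared in few genes hardly moves it. The summed epithelial markers were higher in replicate 1 than in replicate 2 in each WAT group. They were at 34.9 and 30.6 FPKM in day 4 control and 89.0 and 43.99 in day 4 EGCG. On day 8 they were at 20.7 and 17.1 without and 31.9 and 18.8 with EGCG. Whether this reflects shared isolations was not tested. With the replicate block the counts were 20, 19, 20 and 20 for EGCG in WAT day 4, WAT day 8, BAT day 4 and BAT day 8, 20 and 22 between days, 20 and 21 between depots and 13 and 13 for the differences between depots. The block ended the calls of Col5a2 for EGCG in WAT day 8 and of Col14a1 between depots on day 4, and made Col16a1 between depots on day 8 pass.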

Other observations

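Several of the 17 collagen genes too low to be tested had levels that differed between groups. Col6a6, a further type VI chain, was at 0.294, 0.322 and 0.292 FPKM in WAT day 4 control and 0.00639, 0.0272 and 0 with EGCG. Col13a1, a transmembrane collagen, was at 0.61, 0.752 and 0.714 there and 0.136, 0.204 and 0.108 with EGCG. Col9a2, a fibril-associated chain of cartilage, was at 0.493, 0.693 and 0.774 in BAT day 8 control and at most 0.145 in the other libraries. The summed FPKM of 4 chondrocyte markers was 30.3 to 34.4 in BAT day 8 control and at most 12.6 elsewhere, of which Comp (20.3 ± 1.29, mean ± SD of 2 libraries, against at most 4.98 in the other groups) carried the difference, while Sox9 was at 10.3 ± 0.759 there and 10.9 ± 0.47 with EGCG. Its part in Col9a2 was not tested.

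Col17a1, a transmembrane collagen of epithelial cells, was at 0.125 to 1.63 FPKM in the 12 WAT libraries and at most 0.109 in the BAT libraries. The summed FPKM of 5 epithelial markers was 16.6 to 165 in WAT and at most 0.0983 in BAT, where 2 to 5 of them were at 0. Its part in Col17a1 was not tested.

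Other marker lists moved in part. The sum of 6 macrophage markers was higher with EGCG on day 4 (66.7 to 72.0 against 167 to 184 in WAT, 151 to 172 against 344 to 413 in BAT) and lower on day 8 (96.1 to 113 against 24.2 to 56.5 in WAT, 102 to 110.4 against 52.5 to 55.5 in BAT), with the means of all 6 markers going that way. Of 5 pericyte markers only Pdgfrb had a higher mean with EGCG in BAT day 8 (from 62.0 ± 0.344 to 219 ± 3.56 FPKM, mean ± SD of 2 libraries), and the other 4 did not. Cspg4 was at 10.6 ± 0.0864 without and 10.6 ± 1.03 with EGCG. Of 6 progenitor markers only Ly6a had a higher mean with EGCG in WAT day 4 (from 101 ± 17.3 to 309 ± 9.15 FPKM), while Dlk1 was lower (from 51.9 ± 0.426 to 6.11 ± 2.199). On day 8 in WAT, 5 of them had lower means with EGCG, Ly6a among them (from 944 ± 134 to 514 ± 11.9). The sum of 4 white identity markers was 5.19 to 6.55 in BAT and 18.2 to 22.1 in WAT day 4 control, with 3 lower in BAT and Tbx5 higher. The part of these markers in the collagen levels was not tested.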
